A study of Mus musculus with 2 samples.

Results

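The 32 genes described here are 18 genes of glucose uptake, glycolysis and pyruvate use, 13 known targets of the hypoxia-inducible factor (HIF), and Hif1a, which encodes its oxygen-regulated subunit. They were chosen by symbol among the 28692 genes counted in both libraries, and all 32 were found. Their counts were taken over barcodes with at least 8000 UMIs (unique molecular identifiers, 1 per captured transcript) and at most 20% of UMIs from mitochondrial genes, which left 8926 dorsal and 10649 ventral cells.

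The study set cells of 2 domains of the newborn mouse cardiac base side by side. The ventral dissection held the base of the outflow tract with the first stretch of aorta and the pulmonary artery, and the dorsal dissection the pulmonary veins, the cardiac ganglia and the sinoatrial node. Both groups were C57Bl6 mice of both sexes, 3 days old, and cells of 15 hearts were pooled for each domain. The pools were grown as adherent cultures for 5 days, released with trypsin and made into 1 10x 3' v3 library per domain. No genetic change or drug was named for either group. Because each domain was 1 pool, 1 culture and 1 library, domain cannot be told apart from culture or library, no test between domains was possible, and every interval below covers counting error only. Cells had been out of the tissue for days, so the values describe cultured cells.

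Glycolysis splits glucose into pyruvate. Lactate dehydrogenase then turns pyruvate into lactate, which leaves the cell, or pyruvate enters the mitochondrion through pyruvate dehydrogenase. When oxygen is short, prolyl hydroxylases no longer mark HIF-1 alpha for destruction, and HIF binds short DNA elements with the core ACGTG or GCGTG and raises many glycolytic genes together with genes for vessel growth, mitophagy, acid export and collagen modification. Newborn heart muscle relies on glycolysis more than adult heart muscle does.

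The promoters of 7 members, picked after their values were seen, are printed as examples of this core before the start site. They include members far apart between the libraries and members that were not. Every printed window holds a core, so they do not show how common it is among the members. Each run holds the 160 bases before the first start site listed for the gene in RefSeq's table on GRCm38.p6, 5′ to 3′ on the gene's strand, with matches to ACGTG or GCGTG on either strand in capitals; where matches overlap, as in a palindrome, the capitals run on. Bnip3, Slc16a3, Slc2a1 and Car9 stood 2-fold or more above ventral over all cells, and Ldha, Egln1 and P4ha1 were not. The windows are at chr7:138909507-138909666, minus strand (Bnip3), chr11:120948907-120949066, plus strand (Slc16a3), chr4:119108585-119108744, plus strand (Slc2a1), chr4:43506866-43507025, plus strand (Car9), chr7:46845644-46845803, plus strand (Ldha), chr8:124949255-124949414, minus strand (Egln1) and chr10:59323136-59323295, plus strand (P4ha1).
Bnip3: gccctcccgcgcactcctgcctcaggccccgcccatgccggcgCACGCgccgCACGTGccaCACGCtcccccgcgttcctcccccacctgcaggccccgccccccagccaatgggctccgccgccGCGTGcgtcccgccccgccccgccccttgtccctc
Slc16a3: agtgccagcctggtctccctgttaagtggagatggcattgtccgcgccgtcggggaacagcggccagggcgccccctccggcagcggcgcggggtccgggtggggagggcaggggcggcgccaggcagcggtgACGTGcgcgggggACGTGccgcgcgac
Slc2a1: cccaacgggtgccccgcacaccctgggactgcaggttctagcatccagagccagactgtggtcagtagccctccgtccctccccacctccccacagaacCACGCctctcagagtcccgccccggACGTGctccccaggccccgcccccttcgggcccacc
Car9: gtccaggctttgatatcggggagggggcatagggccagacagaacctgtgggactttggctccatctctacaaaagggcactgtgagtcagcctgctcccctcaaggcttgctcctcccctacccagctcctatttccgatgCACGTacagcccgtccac
Ldha: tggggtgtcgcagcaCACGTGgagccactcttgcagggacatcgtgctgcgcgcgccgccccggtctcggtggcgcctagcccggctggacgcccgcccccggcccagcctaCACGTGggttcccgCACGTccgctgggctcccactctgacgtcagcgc
Egln1: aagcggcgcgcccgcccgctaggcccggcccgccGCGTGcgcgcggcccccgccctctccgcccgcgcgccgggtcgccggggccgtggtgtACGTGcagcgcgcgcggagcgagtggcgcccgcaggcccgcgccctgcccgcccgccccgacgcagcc
P4ha1: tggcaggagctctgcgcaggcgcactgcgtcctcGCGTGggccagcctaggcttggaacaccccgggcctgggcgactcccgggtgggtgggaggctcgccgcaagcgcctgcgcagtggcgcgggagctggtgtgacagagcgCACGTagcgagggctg

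Of the 32 members, 31 matched a promoter window in the RefSeq table (300 bases, 250 before to 50 after a start site), all but Ndufa4l2. ACGTG on either strand was in a window of 24 of the 31, against 21.8% of all 27025 genes with a window. Counted by window it was in 58.7% of the 46 windows of members and in 19.6% of all 32851 windows. GCGTG was in a window of 20 of the 31, against 35.2% of all genes. Either core was in a window of 29 of the 31, against 46.7% of all genes. The printed windows of Slc16a3, Car9 and Ldha held ACGTG alone, those of Bnip3 and Slc2a1 held both cores, and so did those of Egln1 and P4ha1, whose levels were nearly level between the libraries. A match describes these letters and is no evidence of binding.

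The dorsal cells held 229117951 UMIs and the ventral cells 253103590, with a median of 22774 and 21462 UMIs per cell, so the counting intervals of most members are narrow. The libraries shared 22 cell barcodes, against 14.0 expected from the list sizes. Clustering without the members and related metabolic genes gave named classes in both libraries: fibroblast-like (6595 dorsal and 6926 ventral cells), mural-like (612 and 1232), Schwann and glial-like (468 and 195), macrophage-like (196 and 131) and endothelial-like (106 and 143). All 9 of the fixed markers were at least 2-fold higher than in the remaining cells for the Schwann and glial, macrophage and endothelial names and 11 of 12 for the mural name, but only 3 of 10 (Tcf21, Dpt and Fbln1) for the fibroblast name, which therefore covers mesenchymal cells more broadly. The fibroblast-like and mural-like cells of the 2 libraries lay mostly in different clusters: 0, 1, 2, 11 and 14 (fibroblast-like) and 15 and 16 (mural-like) in dorsal, and 4, 5, 17 and 20 and 6 and 13 in ventral.

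Over all cells, most members were higher in the dorsal library and none was 2-fold or more higher in the ventral one. Levels are CPM, the UMIs of a gene summed over the cells of a set and scaled to the total UMIs of the same cells. Of the 25 members that reached 20 CPM in a library, 7 were 2-fold or more higher in dorsal: Ndufa4l2, Slc16a3, Egln3, Bnip3, Vegfa, Hk2 and Slc2a1. Of all 5821 genes at that level, 4.69% were that much higher in dorsal and 5.12% in ventral. With every gene at a mean of 1 CPM counted, which takes in all 32 members, 11 members were 2-fold higher in dorsal (background 7.9%) and 0 in ventral (background 5.26%); the added ones were Aldoc, Pdk1, Car9 and Mxi1. At a 1.5-fold limit the counts were 11 of 25 (background 9.31%) at 20 CPM and 17 of 32 (background 15%) with the lower minimum, and 0 in the ventral direction at both (backgrounds 10.7% and 10.4%). The median log2 ratio was 0.68 over the 32 members and 0.09 over the 12490 genes. The glycolytic members summed to 5019 dorsal and 3633 ventral CPM, a log2 ratio of 0.47, and the 13 hypoxia targets to 1256 and 922 CPM, a log2 ratio of 0.45. The sums thus differed by a similar ratio, while single members ranged from a log2 ratio of -0.25 to 4.47.

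Both transporters were higher in dorsal cells. Slc2a1 (ENSMUSG00000028645, chr4:119108711-119137983), the glucose transporter GLUT1, was at 56.3 dorsal and 27.6 ventral CPM, a log2 ratio of 1.03 (95% interval 0.99 to 1.07). Slc16a3 (ENSMUSG00000025161, chr11:120948480-120960868), the lactate exporter MCT4, was at 45.1 CPM (44.2 to 45.9) and 7.96 CPM (7.61 to 8.31), a log2 ratio of 2.50 (2.43 to 2.57).

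Along the glycolytic chain, the ratio differed by step and by isozyme. Hk2, the inducible hexokinase of the first step (chr6:82725025-82774454), was at 74.97 dorsal and 35.4 ventral CPM, a log2 ratio of 1.08 (1.05 to 1.12), while Hk1, the housekeeping hexokinase, was at 20.97 and 23.4 CPM, a log2 ratio of -0.16. Pfkl, the liver-type phosphofructokinase of the committed step, was at 67.3 and 33.7 CPM, just under 2-fold with a log2 ratio of 0.999. Its platelet-type partner Pfkp was at 23.4 and 25.5 CPM (log2 ratio -0.12) and the muscle type Pfkm at 6.18 and 5.86 CPM (0.08). Aldoc, a fructose-bisphosphate aldolase best known from brain, was at 11.1 and 3.73 CPM, a log2 ratio of 1.58 (1.47 to 1.69), and the common aldolase Aldoa at 818 and 488 CPM, a log2 ratio of 0.745. The other enzymes of the chain (Gpi1, Tpi1, Gapdh, Pgk1, Pgam1, Eno1 and Pkm) had log2 ratios from 0.28 for Gapdh to 0.88 for Pgk1. So within each of the hexokinase, phosphofructokinase and aldolase groups, 1 form was clearly further from a ratio of 1 than the others. Pgk1 and Eno1 have near-identical copies in the annotation; Pgk1-rs7 was at 0.467 and 0.281 CPM and Eno1b at 2.22 and 1.98 CPM, and how shared reads were assigned is not given in the sources used here, so the values of both are uncertain.

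The enzymes that decide the fate of pyruvate differed unequally. Pdk1 (chr2:71873224-71903858), a kinase that switches off pyruvate dehydrogenase, was at 15.3 dorsal and 4.48 ventral CPM, a log2 ratio of 1.77 (1.68 to 1.87). Ldha, which makes lactate, was at 632 and 481 CPM, a log2 ratio of 0.39 (0.38 to 0.40).

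The hypoxia targets ranged from far apart between the libraries to level. Ndufa4l2 (ENSMUSG00000040280, chr10:127514967-127517154), a mitochondrial protein that lowers respiration and is also a known pericyte marker, was at 140 CPM (139 to 142) in dorsal and 6.35 CPM (6.04 to 6.66) in ventral cells, 22.1-fold higher with a log2 ratio of 4.47 (4.40 to 4.54). In ventral barcodes of 10 to 100 UMIs, which mostly hold RNA from outside cells, Ndufa4l2 was at 20.7 CPM, above its level in the ventral cells, and in dorsal ones at 52.6 CPM, below that in the dorsal cells, so the pooled ventral level does not stand above free RNA. Pooled ventral levels of Bnip3 (31.7 against 45.5 CPM), Vegfa (22.0 against 36.6), Egln3 (7.75 against 10.3) and Pdk1 (4.48 against 6.01) were also below those of the ventral low-UMI barcodes. So were Aldoc (3.73 against 4.09) and Mxi1 (9.17 against 9.86), whereas Slc16a3, Hk2, Slc2a1 and Car9 were above. In the dorsal library the cells were above the low-UMI barcodes for all of these genes, by the smallest ratio for Bnip3 (87.4 against 77.3 CPM). The low-UMI barcodes held 893166 dorsal and 4156717 ventral UMIs in all. Their levels of rare genes thus rest on few UMIs, and no interval was computed for them. The part of free RNA in the ratios of these genes was not tested. Egln3 (chr12:54178981-54203860), a HIF prolyl hydroxylase that HIF itself induces, was at 25.5 and 7.75 CPM, a log2 ratio of 1.72 (1.65 to 1.79). Bnip3 (chr7:138890836-138909519), a mitophagy receptor, was at 87.4 and 31.7 CPM, a log2 ratio of 1.47 (1.428 to 1.503). Vegfa, the main growth factor for blood vessels (chr17:46016993-46032369), was at 52.2 and 22.0 CPM, a log2 ratio of 1.24 (1.199 to 1.291). Mxi1, an antagonist of Myc, was at 19.8 and 9.17 CPM (log2 ratio 1.11), and Car9, a cell-surface carbonic anhydrase, at 1.63 and 0.494 CPM (1.72).

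The remaining targets differed by less than 2-fold. Egln1, the main oxygen-sensing prolyl hydroxylase, was at 72.0 and 74.7 CPM (log2 ratio -0.05), and P4ha1, a collagen prolyl hydroxylase subunit, at 161 and 165 CPM (-0.03), whereas its sister subunit P4ha2 was at 96.5 and 62.6 CPM (0.62). Adm, the vasodilator peptide adrenomedullin, was at 274 and 233 CPM (0.23), Higd1a, a mitochondrial survival protein, at 268 and 244 CPM (0.14), and Ddit4, an inhibitor of mTORC1 that glucocorticoids and stress also induce, at 53.3 and 63.2 CPM (-0.25). Ankrd37 was at 3.21 and 1.80 CPM (0.84), and Hif1a itself at 277 and 191 CPM, a log2 ratio of 0.54 (0.52 to 0.56). TMM scaling, which corrects for differences in composition, lowered every ratio by 0.12 and left Hk2, Slc2a1 and Mxi1 just under 2-fold. The sign of Pfkm turned under TMM and without muscle-like and macrophage-like cells, and the signs of Egln1 and P4ha1 turned when mitochondrial and ribosomal protein genes were left out of the scaling.

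**Figure D1:**
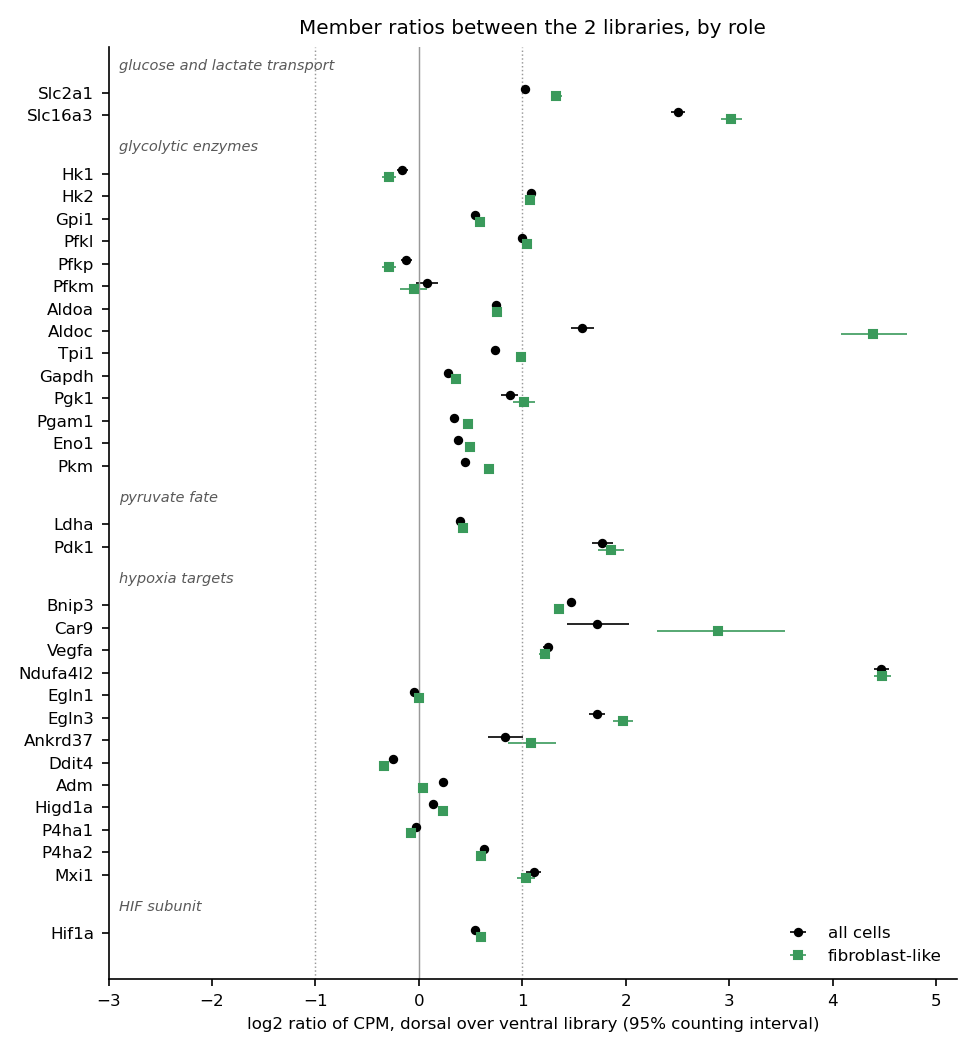
Log2 ratio of CPM (dorsal over ventral library, horizontal axis) for the 32 members grouped by role, over all cells (black circles) and fibroblast-like cells (green squares), with 95% counting intervals; dotted lines mark 2-fold. Ndufa4l2 lies furthest to the right at 4.47 over all cells, Aldoc is at 1.58 over all cells and 4.39 in fibroblast-like cells, and no member lies beyond 2-fold on the ventral side.

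Within fibroblast-like cells the order of the members was much the same. There 8 of 25 members at 20 CPM stood 2-fold or more above ventral (background 4.83%) and 0 that far below (background 5.05%). Slc16a3 had 45.3 dorsal and 5.598 ventral CPM, a log2 ratio of 3.02 (2.92 to 3.12), Bnip3 at 91.4 and 35.9 CPM (1.35), Vegfa at 57.7 and 24.8 CPM (1.22) and Hk2 at 84.0 and 39.8 CPM (1.08). Aldoc had 11.4 dorsal and 0.544 ventral CPM, a log2 ratio of 4.39 (4.08 to 4.71), well above its ratio over all cells; the ventral library also held 1074 mesothelial-like cells, with Aldoc at 22.6 CPM. Egln1 was at 72.2 CPM in both.

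Every class had members at least 2-fold higher in dorsal, in unequal number. In macrophage-like cells there were 9 of 28 (background 3.49%): Slc2a1, Pfkl, Pdk1, Slc16a3, Bnip3, Vegfa, Ndufa4l2, Egln3 and Mxi1. There were 4 of 24 in mural-like cells (background 5.55%), 4 of 24 in Schwann and glial-like cells (background 3.5%) and 4 of 29 in endothelial-like cells (background 6.33%). Clustering on 4000 variable genes, which redrew the mural-like class, gave 8 of 25 members there (background 7.54%). TMM scaling lowered the Schwann and glial-like count to 2 of 23 (background 2.93%) and the endothelial-like count to 2 of 27 (background 5.13%). Leaving out the highest doublet scores lowered the endothelial-like count to 2 of 27, close to the background of 7.34%. Higher in ventral by 2-fold was 1 member in 1 class, Ankrd37 in endothelial-like cells (background 3.89%), a count that was 0 after thinning and with the mean of each cell's CPM, and 0 members in macrophage-like, mural-like and Schwann and glial-like cells (backgrounds 2.92%, 4.26% and 2.67%). Pdk1, Ndufa4l2 and Egln3 were 2-fold or more above ventral in all 5 classes, 3 of 32 members (background 1.35%), and 15 of 32 members were above ventral by any amount in all 5 (background 19.7%), against 0 higher in ventral in all 5 (background 9.82%). The 20 CPM minimum was not applied here. In ventral Schwann and glial-like cells Pdk1, Ndufa4l2 and Egln3 were at 2.06, 0.258 and 1.03 CPM, so the result there rests on few UMIs (4 for Egln3). Of the 5 classes, Schwann and glial-like cells had the lowest glycolytic ratio: the sum was 3189 dorsal and 3313 ventral CPM, a log2 ratio of -0.06 (-0.09 to -0.02). In the other 4 classes that ratio lay between 0.25 and 0.67. A ratio near 0 was not particular to this class. It was 0.04 in the cardiomyocyte-like cluster 8 and 0.01 in fibroblast-like cells of 8000 to below 15000 UMIs. The Schwann and glial-like cells had median depths of 13263.5 dorsal and 17412 ventral UMIs, and the part of depth was not tested. Whether these ratios differ between classes was not tested.

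Fibroblast markers were also counted in the other classes. Whether this came from carried-over RNA, doublets or expression of their own was not tested. In dorsal macrophage-like cells the 10 fibroblast markers stood at 18.02% to 35.9% of their fibroblast-like level (median 24.6%) and in ventral ones at 21.9% to 39.5% (median 28.3%). Ndufa4l2 in dorsal macrophage-like cells, at 53.9 CPM, was at 32.9% of its fibroblast-like level, inside the dorsal range. In ventral macrophage-like cells, at 3.29 CPM, it was at 44.8%, above the highest marker. In dorsal Schwann and glial-like cells, at 27.97 CPM, it was at 17.1%, where the markers had a median of 23.8% and ran from 13.9% to 310%. Egln3 in dorsal Schwann and glial-like cells was likewise at 20.97% and Pdk1 there at 34.5%. Whether Ndufa4l2 in these dorsal classes, and Egln3 in dorsal Schwann and glial-like cells, was carried over or expressed was not tested. The count over all 5 classes includes these levels. Without the highest doublet scores, Ndufa4l2 was at 28.4 CPM in dorsal macrophage-like and 6.40 CPM in dorsal Schwann and glial-like cells. Bnip3 in Schwann and glial-like cells was then at 24.96 dorsal and 14.6 ventral CPM, a log2 ratio of 0.77. Bnip3 was thus no longer 2-fold apart there, and Ndufa4l2 was under the 20 CPM minimum, so neither was counted. In dorsal macrophage-like cells Slc16a3 was at 194% of its dorsal fibroblast-like level, Pdk1 at 190%, Bnip3 at 130% and Egln3 at 102%. In dorsal endothelial-like cells Egln3 was at 181%, where the markers reached at most 16.5%. Vegfa in dorsal macrophage-like cells, at 41.1%, lay close to the marker range.

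Dorsal and ventral cells that fell into the same cluster were compared next, since class names cover different clusters. Cluster 4, led by Cd200 and Angpt2, held 32 dorsal and 1728 ventral cells, with 7 of 22 members there 2-fold or more above ventral (background 3.67%). Cluster 5, led by Col12a1 and Epha3, held 62 and 779 cells and 6 of 26 such members (background 5.83%), and cluster 12, led by cell-cycle genes, 179 and 901 cells and 10 of 26 (background 4.06%). None was 2-fold higher in ventral in any of the 3 clusters (backgrounds 2.95%, 2.27% and 5.41%). The cardiomyocyte-like cluster 8, with 48 and 32 cells, had 5 of 27 members 2-fold above ventral (background 7.87%) and 0 below (background 6.58%). Ndufa4l2 was at 133 and 2.96 CPM in cluster 4, at 105 and 6.18 CPM in cluster 5 and at 85.9 and 4.19 CPM in cluster 12. Slc16a3 was at 27.8 and 1.99 CPM in cluster 4, at 70.9 and 7.30 CPM in cluster 5 and at 78.1 and 8.86 CPM in cluster 12. Dorsal and ventral cells placed in the same cluster thus differed for these genes, though the few dorsal cells of clusters 4 and 5 give wide intervals. A shared cluster does not make the cells alike in type: cluster 12 was left unnamed and is led by cell-cycle genes. The part of doublets, free RNA and depth in these values was not tested. Hk2 in cluster 5, at 62.2 and 53.1 CPM, had a log2 ratio of 0.23 (-0.14 to 0.57), an interval that includes 0.

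**Figure D2:**
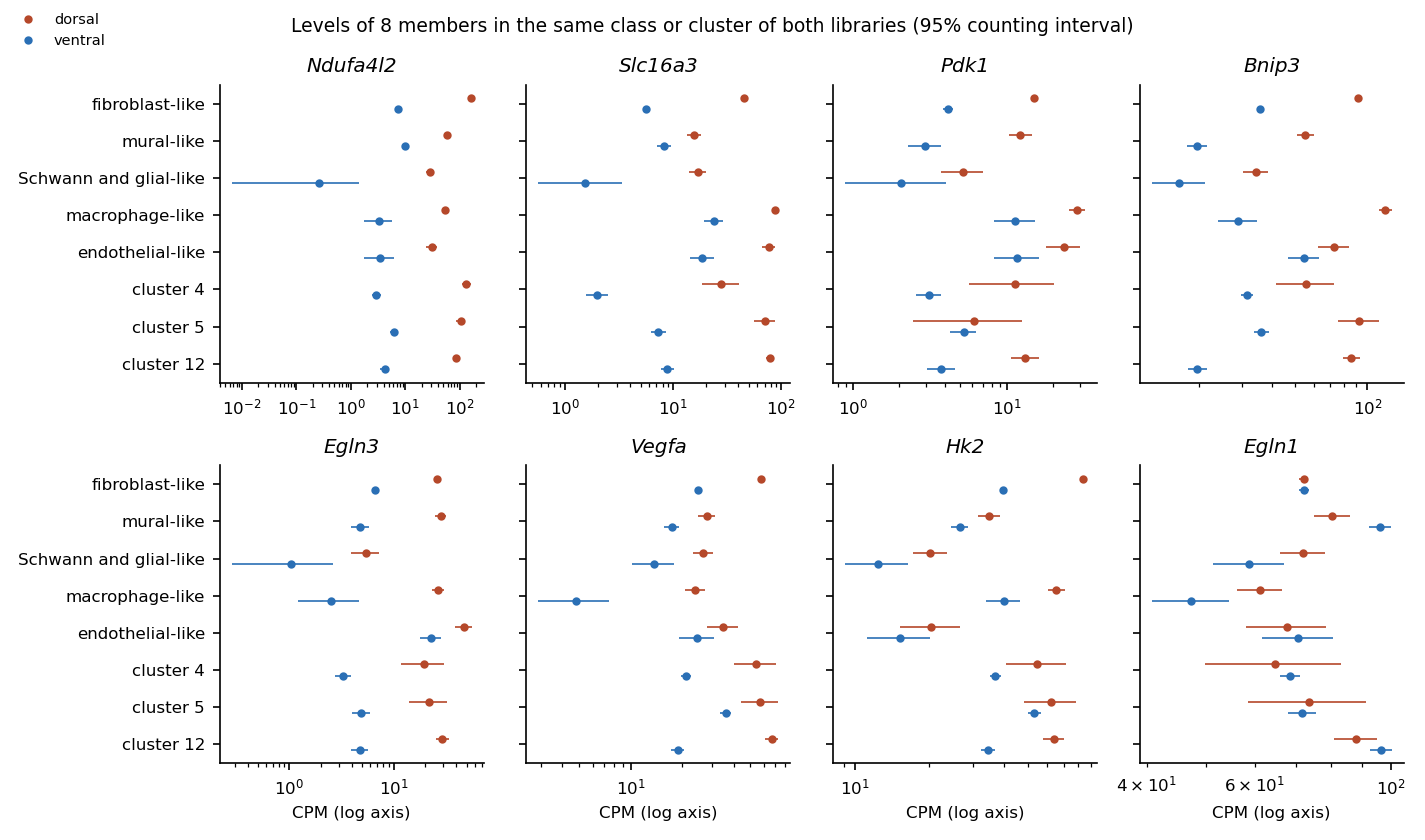
CPM on a log axis with 95% counting intervals for 8 members in 5 classes and 3 clusters that hold cells of both libraries (red dorsal, blue ventral). Ndufa4l2 and Slc16a3 lie further right in dorsal than in ventral cells in each row, whereas Egln1 is at 72.2 CPM in fibroblast-like cells of both.

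The size of the difference moved with the depth of the cells. Among fibroblast-like cells of 8000 to below 15000 UMIs (991 dorsal and 1151 ventral), the glycolytic sum was 2628 dorsal and 2605 ventral CPM, a log2 ratio of 0.01. It was 3708 and 3103 CPM in cells of 15000 to below 25000 UMIs (2351 and 3464 cells), 5299 and 3693 CPM in cells of 25000 to below 40000 UMIs (2413 and 1858 cells) and 6336 and 3835 CPM in cells of 40000 UMIs and more (840 and 453 cells), log2 ratios of 0.26, 0.52 and 0.72. The hypoxia sum moved less, from 1235 and 996 CPM in the shallowest cells to 1507 and 1035 CPM in the deepest, log2 ratios of 0.31 and 0.54. In the 4 bins 2 of 24, 5 of 25, 6 of 25 and 9 of 25 members stood 2-fold or more above ventral (backgrounds 6.67%, 5.99%, 4.75% and 4.09%). In the other direction the counts were 1 (Ddit4), 0, 0 and 0 (backgrounds 4.87%, 5.02%, 5.09% and 4.71%). In the shallowest bin the share of members higher in dorsal was thus close to the background. That count left out members under 20 CPM in both libraries. At any level, Ndufa4l2 (log2 ratio 3.48), Aldoc (2.50), Slc16a3 (2.04), Hk2 (1.59) and Egln3 (1.34) were more than 2-fold higher in dorsal there. Ndufa4l2 and Slc16a3 kept log2 ratios of at least 3.48 and 2.04 in the 4 bins, whereas Bnip3 went from 0.46 to 1.79, Pgk1 from 0.17 to 1.25 and Ddit4 from -1.19 to -0.08. UMIs per cell join cell size, RNA content and capture, whose part in these values was not tested.

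**Figure D3:**
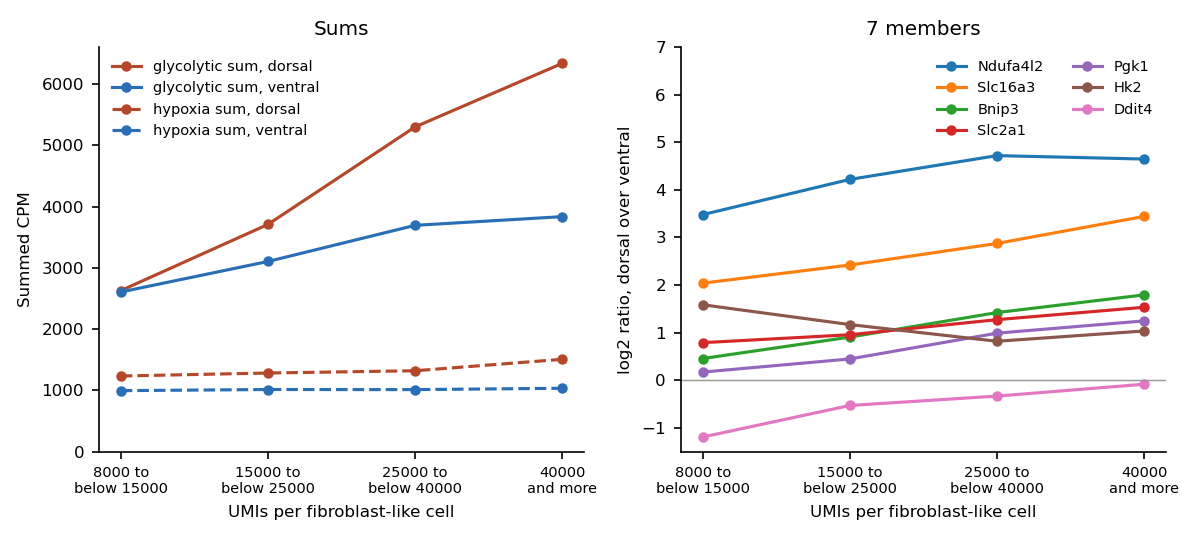
Left, summed CPM of the 18 glycolytic members (solid) and 13 hypoxia targets (dashed) in fibroblast-like cells of 4 bins of UMIs per cell, dorsal in red and ventral in blue. Right, log2 ratios of 7 members in the same bins. The glycolytic sums start together at 2628 and 2605 CPM and end at 6336 and 3835 CPM.

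Within each library the 2 gene groups were ranked differently over the classes. The glycolytic sum was highest in macrophage-like cells, at 8776 dorsal and 5514 ventral CPM among classes of at least 100 cells, and in the small muscle classes: 8763 CPM in the 38 dorsal skeletal muscle-like cells and 6858 and 6653 CPM in the 48 dorsal and 32 ventral cardiomyocyte-like cells. It was lowest in Schwann and glial-like cells in dorsal (3189 CPM) and in mural-like cells in ventral (2912 CPM). The hypoxia sum was instead highest in fibroblast-like cells, at 1350 and 1015 CPM, and was 756 and 450 CPM in macrophage-like cells. Relative to fibroblast-like cells, macrophage-like cells were thus higher in the glycolytic sum (log2 ratio 0.83 in dorsal and 0.71 in ventral) and lower in the hypoxia sum (-0.84 and -1.17).

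Single members followed the classes in their own ways. In the ventral library Aldoc was at 22.6 CPM in mesothelial-like and 18.5 CPM in macrophage-like cells against 0.531 CPM in mural-like cells, a 42.6-fold range. Car9 spanned 58.2-fold in ventral cells, from 0.161 CPM in fibroblast-like to 9.36 CPM in macrophage-like cells, with few UMIs behind each value. Egln3 was highest in dorsal skeletal muscle-like cells, at 133 CPM, against 25.9 CPM in dorsal fibroblast-like cells. Vegfa was highest in the 48 dorsal cardiomyocyte-like cells, at 94.8 CPM (78.3 to 113.7), with 36.7 CPM in the 32 ventral ones. Hif1a was highest in endothelial-like cells, at 495 and 308 CPM. Pfkm, the muscle phosphofructokinase, was at 75.8 CPM in skeletal muscle-like cells and at 39.2 and 53.7 CPM in dorsal and ventral cardiomyocyte-like cells, against 2.53 to 9.44 CPM in the other classes. The narrowest ranges were those of Egln1 over the 5 dorsal classes, from 61.1 to 80.3 CPM (1.31-fold), and of Gpi1, the second enzyme of the chain, over the 6 ventral ones, from 160 to 280 CPM (1.75-fold). Adm was at 315 and 306 CPM in fibroblast-like cells and at 92.2 and 72.6 CPM in macrophage-like cells, within the range that fibroblast markers reached there.

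**Figure D4:**
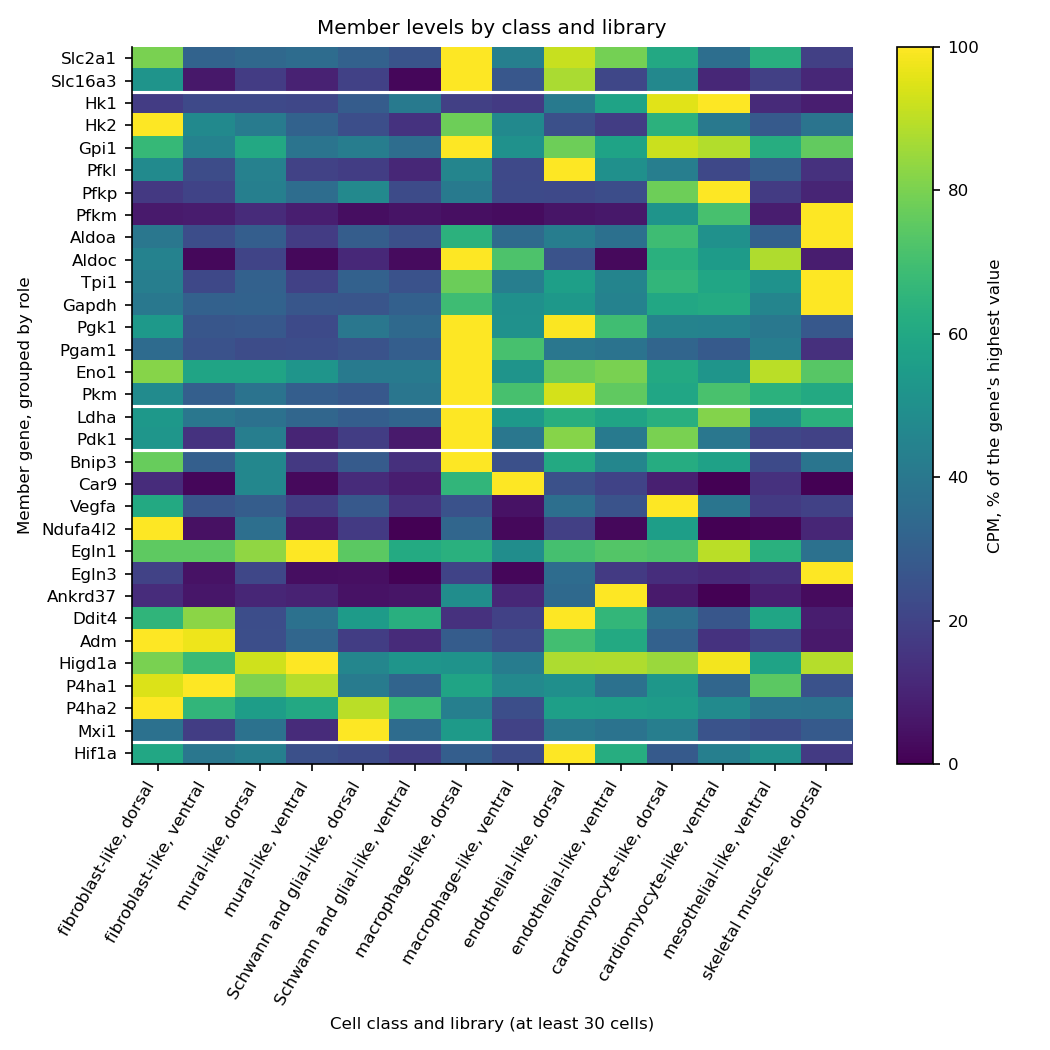
CPM of each member in each class and library with at least 30 cells, coloured as a percentage of that gene's highest value; rows are grouped by role. Most enzyme rows are brightest in dorsal macrophage-like or skeletal muscle-like cells, and Ndufa4l2, Adm and P4ha2 are brightest in dorsal fibroblast-like cells.

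The make-up of the isozyme groups differed between the libraries in fibroblast-like cells, but not for every group in the other classes. The shares given here are shares of UMIs at the 3′ ends of the genes, which may be captured unequally, so they compare libraries and not genes. For fibroblast-like cells, Hk2 made up 81.0% of hexokinase UMIs in dorsal (95% interval 80.4% to 81.6%) and 62.3% in ventral (61.3% to 63.2%), and Pfkl 73.7% of phosphofructokinase UMIs in dorsal and 53.5% in ventral. Aldoc made up 1.38% of aldolase UMIs in dorsal and 0.113% in ventral. Egln3 made up 26.4% of the UMIs of the 2 prolyl hydroxylases in dorsal and 8.38% in ventral, and P4ha2 37.7% and 27.5% of those of the 2 collagen hydroxylase subunits. In macrophage-like cells the Pfkl share was 56.9% in dorsal and 53.2% in ventral, with overlapping intervals (53.8% to 59.9% and 46.6% to 59.7%), while the Egln3 share was 30.3% and 5.08%. The P4ha2 share was 28.3% in dorsal and 28.1% in ventral mural-like cells. In endothelial-like cells it was 39.5% in dorsal and 46.4% in ventral, with overlapping intervals (34.6% to 44.6% and 41.4% to 51.5%).

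Over clusters of at least 100 cells, 12 in each library, the enzymes moved together and the hypoxia targets did so less. The median Spearman correlation between pairs of glycolytic members was 0.56 over dorsal and 0.52 over ventral clusters, between pairs of hypoxia targets 0.18 and 0.19, and between the 2 groups 0.17 and 0.03. The sums themselves had a correlation of 0 over dorsal and -0.54 over ventral clusters. For these single-gene values, a member was left out of the sum of its own group. Bnip3 and Egln3 were closer to the glycolytic sum than to the hypoxia sum over dorsal clusters (0.67 against 0.34 and 0.73 against -0.20). Over ventral clusters this held for Egln3 (0.38 against 0.20) and not for Bnip3 (0.29 against 0.36). Hk2 was closer to the hypoxia sum, over dorsal (0.78 against 0.19) and ventral clusters (0.43 against -0.04). Clusters share a library and depth, so these are descriptions.

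**Figure D5:**
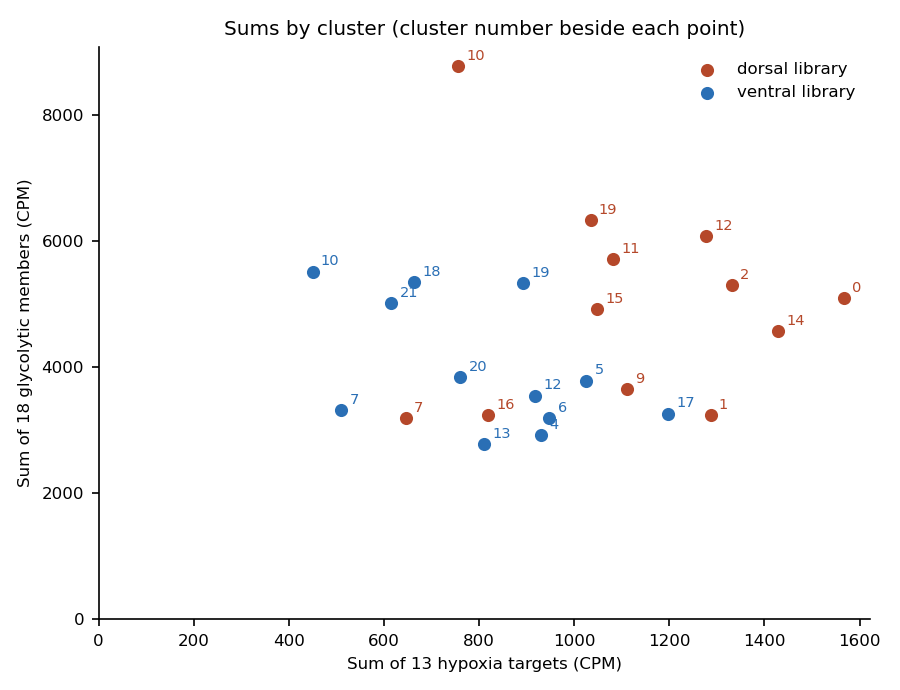
Sum of the 18 glycolytic members against the sum of the 13 hypoxia targets, both in CPM, for each cluster with at least 100 cells (red dorsal, blue ventral, cluster number beside the point). Cluster 10, the macrophage-like cells, lies at the top left of each library's points, and dorsal cluster 0 at the far right.

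From cell to cell the 2 sums were related in dorsal but hardly in ventral fibroblast-like cells. With every cell thinned to 8000 UMIs, the glycolytic sum had a median of 32 UMIs in dorsal and 24 in ventral fibroblast-like cells and the hypoxia sum of 9 and 7 UMIs. The Spearman correlation of the sums across cells came to 0.33 for the 6595 dorsal cells and 0.03 for the 6926 ventral cells (Pearson 0.34 and 0.05). Without Ddit4, Ndufa4l2 and Vegfa in the hypoxia sum the dorsal value was 0.24. In the same dorsal cells the glycolytic sum had a correlation of 0.58 with UMIs per cell before thinning and of -0.30 with the percentage of mitochondrial UMIs, against 0.37 and -0.06 in ventral; the part of depth in the relation was not tested. At least 1 thinned UMI of Ndufa4l2 was found in 44.7% of dorsal fibroblast-like cells (61.4% unthinned) and in 4.29% of ventral ones (8.65% unthinned). In macrophage-like cells Ndufa4l2 was found in 13.8% of dorsal (interval 9.28% to 19.4%) and 2.29% of ventral cells (0.475% to 6.55%). Whether macrophage-like cells express it was not tested. The ventral fibroblast-like share as a whole is within the interval of the ventral macrophage-like cells. Shares also varied between ventral clusters of like depth. The thinned share of cells with Ndufa4l2 was 6.59% (5.72% to 7.55%) in cluster 17 and 1.91% (1.32% to 2.67%) in cluster 4, with median depths of 20946 and 20774 UMIs. It was 13.5% (10.3% to 17.3%) in the mural-like cluster 6 and 0.604% (0.196% to 1.40%) in the mural-like cluster 13, with 16079 and 16177 UMIs. Cluster 6 had the highest Ndufa4l2 level of the ventral clusters of at least 100 cells, at 26.8 CPM, and its share was above that in ventral macrophage-like cells. These intervals cover the counting of cells of 1 library only, and the part of free RNA in the shares was not tested. Median depths were 24743 and 21304 UMIs for dorsal and ventral fibroblast-like cells and 43244 and 27578 for macrophage-like cells. Among dorsal fibroblast-like clusters the thinned share for Ndufa4l2 ran from 17.7% in cluster 1, led by Gdf10 and Barx1, to 64.1% in cluster 0, led by Sele and Fbln1.

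Other genes of the same pathways were counted from fixed lists. None of the 9 other glycolysis genes at 20 CPM was 2-fold apart over all cells (backgrounds 4.69% and 5.12%), and their median log2 ratio was -0.01; in fibroblast-like cells Slc16a1, another lactate transporter, was at 23.7 and 6.13 CPM (1.95), and Ldhb, the other lactate dehydrogenase subunit, at 64.6 and 21.5 CPM (1.59). Of 25 further HIF target genes 5 lay 2-fold or more above ventral and 1 as far below, with a median of 0.38. They were Ero1l, an oxidase of protein folding (255 and 83.1 CPM), Stc2, a secreted glycoprotein (25.3 and 9.43 CPM), Fam162a (277 and 111 CPM), the cytokine Mif (1151 and 460 CPM) and the haem oxygenase Hmox1 (148 and 72.5 CPM), with Tgfb3 (26.6 and 61.2 CPM) in the other direction. Of 11 genes of the HIF machinery only Epas1, which encodes HIF-2 alpha, was 2-fold apart, at 10.1 dorsal and 23.5 ventral CPM (log2 ratio -1.21). None of the 16 genes of the citric acid cycle or the 5 of the pentose phosphate pathway was 2-fold apart, with medians of -0.12 and -0.17.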

How the data were processed

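Per the submitters' processing notes, reads were processed with Cell Ranger 3.0.2 against mm10; the sources used here do not name the annotation release. The authors deposited raw UMI counts per gene and barcode without selection of cells. The other deposited columns hold gene names, identifiers and barcodes. Members and lists were chosen with earlier results of these data known. Gene positions come from GENCODE M21 (28339 of 28692 IDs matched).

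Counts were summed over cells of a library or class and scaled to CPM. Intervals are 95%: exact Poisson for CPM, exact conditional binomial for ratios, Clopper-Pearson for shares. Cells were clustered with scanpy 1.11.5 (2000 variable genes without the members and related metabolic genes, 30 principal components, 15 neighbours, Leiden resolution 1.0). A cluster was named when at least 3 markers and a set share of the list were found in 25% of its cells at 2-fold the level elsewhere; otherwise it was fibroblast-like if 5 fibroblast markers were in 50% of cells and cell-cycle genes did not lead it. Doublets were kept. Scrublet's own threshold marked 0.0% of dorsal cells and so failed; leaving out the 637 dorsal and 907 ventral cells with the highest scores is an alternative, as are TMM (edgeR 4.0.16), thinning and other filters. Named genes were those 2-fold apart, with the widest or narrowest range over classes, or in isozyme groups. On simulated counts the ratio script recovered 200 of 200 changed genes among 5429, with intervals that held the true value in 94.8%.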

Additional observations from a re-analysis of the deposited data

Results flagged for a closer look

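For 3 members the log2 ratio between the libraries reached 0.5 in opposite directions in different classes; with 1 library per domain the difference between classes was not tested. Ankrd37, a nuclear ankyrin-repeat protein, was at 7.70 dorsal and 22.5 ventral CPM in endothelial-like cells, a log2 ratio of -1.55 (95% interval -2.34 to -0.81), and at 11.0 and 2.53 CPM in macrophage-like cells, a log2 ratio of 2.12 (1.18 to 3.22). These rest on 20 and 71 UMIs of Ankrd37 in endothelial-like cells and on 100 and 10 in macrophage-like cells. After thinning and with the mean of each cell's CPM, Ankrd37 was no longer counted in endothelial-like cells, although its ratio there was still more than 2-fold toward ventral, because its level was then under the 20 CPM minimum. Pkm, the pyruvate kinase, was at 257 and 369 CPM in Schwann and glial-like cells, a log2 ratio of -0.52 (-0.62 to -0.42), and at 454 and 283 CPM in fibroblast-like cells, a log2 ratio of 0.68. Ddit4 had a log2 ratio of -0.67 (-0.89 to -0.45) in mural-like cells and of 0.59 (0.31 to 0.88) in endothelial-like cells. Pfkp, Gapdh, Adm, Ldha, Pgam1, Higd1a, Egln1 and P4ha1 also had intervals on opposite sides of 0 in different classes, with a smaller ratio in at least 1 direction: Pfkp had a log2 ratio of 1.05 in Schwann and glial-like and -0.29 in fibroblast-like cells, and Adm of 0.54 in Schwann and glial-like and -0.46 in mural-like cells. Without the highest doublet scores the Schwann and glial-like ratio of Adm was -0.69.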

How the results depend on the processing

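With 1 library per domain nothing here measures the spread between pools, cultures or libraries, and the depth of the small classes leaves ratios of rare members wide. Over the settings tried, apart from the depth bins, the count of members 2-fold above ventral ranged from 5 to 11 over all cells, from 6 to 11 in fibroblast-like, from 9 to 12 in macrophage-like, from 3 to 8 in mural-like and from 2 to 5 in both Schwann and glial-like and endothelial-like cells. It was 11 over all cells both without the 20 CPM minimum (background 20.8%) and at 1.5-fold (background 9.31%). It was 8 in mural-like cells with 4000 variable genes (background 7.54%) and 2 in Schwann and glial-like cells with TMM (background 2.93%). In endothelial-like cells it was 2 with TMM (background 5.13%) and 2 without the highest doublet scores (background 7.34%). The 1 endothelial-like member higher in ventral was lost (0) after thinning and with the mean of each cell's CPM; the cause was not tested. The depth bins were chosen after seeing the data. They gave 2 members in fibroblast-like cells of 8000 to below 15000 UMIs (background 6.67%) and 5 in those of 15000 to below 25000 (background 5.99%). The dorsal correlation of the sums across fibroblast-like cells was 0.40 unthinned and 0.24 without Ddit4, Ndufa4l2 and Vegfa. At Leiden resolution 2.0 the macrophage-like over fibroblast-like log2 ratio was 0.79 for the dorsal glycolytic sum and -1.07 for the ventral hypoxia sum. Signs turned for members near 0 or in small classes: without mitochondrial and ribosomal protein genes in the scaling, Egln1 (0.004) and P4ha1 (0.0239) over all cells; without the highest doublet scores, Adm (-0.69) and Hif1a (-0.0305) in Schwann and glial-like cells; Adm in fibroblast-like cells with a minimum of 15000 UMIs (-0.0266) and with TMM (-0.0799); Aldoc in macrophage-like cells after thinning (-0.25); Eno1 (-0.0388) and Ldha (-0.0123) in mural-like cells with TMM; and in mural-like cells Adm at resolution 2.0 (0.44) and, with 4000 variable genes, Pfkp (-0.14), Adm (1.06) and P4ha1 (0.0379). For these the cause was not tested. No paired analysis was possible because each domain has 1 library and no result comes from a test.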

Other observations

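The 10 genes outside all lists whose level over clusters was most like the hypoxia sum, by the lower of the dorsal and ventral Spearman correlations over 12 clusters each, were F2r (0.83 and 0.86), Fhl2, Dlc1, Ptn, Fbn1, Gpr176, Lrrc32, Osmr, Il1r1 and Rps20 (0.78 and 0.74). F2r encodes the thrombin receptor, Fbn1 the matrix protein fibrillin-1 and Il1r1 the interleukin-1 receptor.

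Lists outside the pathway also differed over all cells. Of 16 NF-kB and cytokine genes 13 were at least 2-fold higher in dorsal (background 4.69%), with a median log2 ratio of 2.29; the neutrophil chemokine Cxcl1 was at 2236 and 264 CPM. Of 11 immediate early genes 6 were 2-fold higher in dorsal (median 1.48), among them Atf3 (64.8 and 14.2 CPM). Of 11 integrated stress response genes 5 were (median 0.44), among them Ddit3 (313 and 98.8 CPM). Of 14 cell cycle genes 10 were 2-fold higher in ventral (background 5.12%, median -1.503), among them Ube2c (23.5 and 73.8 CPM). The log2 ratio of the summed cell cycle list was -1.27 over all cells. Within classes it was -0.13 in fibroblast-like, -0.65 in mural-like, -0.61 in Schwann and glial-like, -0.79 in macrophage-like and 0.83 in endothelial-like cells. Cluster 12, led by cell-cycle genes, held 179 dorsal and 901 ventral cells, so the pooled value also reflects cell make-up. None of 5 glucocorticoid response genes was 2-fold apart. The part of these programmes in the values of the members was not tested.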
